A study of Mus musculus with 31 samples.

Results

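Type I interferon response genes are the genes that cells switch on after sensing interferon alpha or beta. The set described here holds 35 of them, named by symbol as well-known members of the programme. All 35 had a row in each of the 31 count tables, which list 38406 gene symbols, and all 35 passed the filter on low counts in every fit.

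The RNA came from CD45.2+ immune cells sorted by FACS from tumours of the triple negative mouse mammary line AT3-OVA, which carries ovalbumin. Tumours grew in the mammary fat pad of wild-type female C57BL/6 mice and received local radiotherapy (RT) with an electron beam, the rest of the animal being shielded. At day 5 after the end of RT there were 6 libraries from tumours given 3x4Gy (3 fractions of 4 Gy, 1 each day) and 4 from the mock schedule 3x0Gy. The single dose of the same day, 1x20Gy (1 fraction of 20 Gy), had 6 libraries, and its mock 1x0Gy had 4. The later time point, day 13, has the single dose only, with 7 libraries of 1x20Gy and 4 of 1x0Gy. All mice, mocks included, were anaesthetised with ketamine and xylazine on their regimen's schedule, and all carried the tumour. The age of the mice is not given in the sources used here. Day 5 and day 13 libraries bear different sample codes in the labels, so day and experiment cannot be told apart, and levels are given within a day.

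Type I interferons bind the receptor of Ifnar1 and Ifnar2, whose kinases Jak1 and Tyk2 activate transcription factors that include Stat2. Together with Irf9, Stat2 is part of a complex called ISGF3, which binds the interferon-stimulated response element (ISRE) in the promoters of its targets. Irf7, itself a target, feeds back on interferon genes. In irradiated tumours the programme is studied because damaged DNA that reaches the cytosol can trigger the sensor cGAS and its partner STING, and plasmacytoid dendritic cells (pDC) are a potent source of the ligands.

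Gene counts per library ran from 2641229 to 7541144. Counting error alone did not account for the spread of replicates, since chi-square divided by its degrees of freedom lay between 3.67 and 69.3 for library pairs of a group. The leukocyte check genes, Ptprc (which encodes CD45) among them, summed to between 3616 and 5080 CPM (counts scaled to library size with TMM factors) after 3x4Gy and between 2129 and 3327 after 3x0Gy, Ptprc and Cd52 being higher after 3x4Gy. The 3x0Gy library 2 stood apart. It had the 2129 CPM of leukocyte check genes, where the other 3 libraries had at least 3117, and 23200 CPM of macrophage markers, where they had at most 11670. It also had the lowest share of reads outside annotated genes, 5.66%. Calls that rest on 3x0Gy are therefore also given without it.

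RefSeq (GRCm38.p6) holds a promoter window, 250 bases before to 50 after the start, for 24 of the 35 genes (30 windows in all). The ISRE core was searched as GAAA, 2 bases of any kind and GAAA again, and the gamma-activated site (GAS), an element of interferon gamma targets, as TTCNNNGAA, both on either strand. The ISRE core stood in a window of 14 of the 24 genes, against 3.99% of all 27025 genes with a window. It occurred at least 2 times in 6 of the 24, Bst2, Ifi205, Ifit1, Ifit3, Oas1a and Isg15, against 0.27% of all genes. GAS stood in 6 of the 24, against 9.55% of all genes. A match is a description of letters in a window and was not tested as a binding site.

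The promoters shown belong to the 6 genes with an ISRE match that had the smallest p against their own mock, so they can be read beside the values that follow. Each is written 5′ to 3′ on the gene's own strand, with every ISRE core in capitals. A run that starts and ends in TTTC is the core read from the other strand. Bst2 has overlapping cores, whose first bases lie 130 and 124 bases before the start.
Bst2, chr8:71537423-71537722, minus strand: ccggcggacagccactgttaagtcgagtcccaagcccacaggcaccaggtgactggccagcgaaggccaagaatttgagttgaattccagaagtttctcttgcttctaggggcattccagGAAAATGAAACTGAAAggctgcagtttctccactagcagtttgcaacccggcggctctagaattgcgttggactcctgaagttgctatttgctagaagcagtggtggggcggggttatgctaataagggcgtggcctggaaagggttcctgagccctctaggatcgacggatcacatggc
Ifi205, chr1:174031706-174032005, minus strand: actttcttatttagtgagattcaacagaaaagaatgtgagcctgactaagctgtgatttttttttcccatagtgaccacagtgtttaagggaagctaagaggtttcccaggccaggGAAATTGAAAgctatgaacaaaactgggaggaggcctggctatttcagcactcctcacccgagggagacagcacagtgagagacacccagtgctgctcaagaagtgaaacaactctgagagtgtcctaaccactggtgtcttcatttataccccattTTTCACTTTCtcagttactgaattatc
Ifit1, chr19:34640639-34640938, plus strand: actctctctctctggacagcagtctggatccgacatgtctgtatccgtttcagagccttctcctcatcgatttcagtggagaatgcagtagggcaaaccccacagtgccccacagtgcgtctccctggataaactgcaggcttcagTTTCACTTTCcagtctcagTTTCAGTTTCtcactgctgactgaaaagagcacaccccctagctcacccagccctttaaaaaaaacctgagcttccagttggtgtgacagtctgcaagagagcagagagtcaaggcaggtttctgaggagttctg
Ifit3, chr19:34583279-34583578, plus strand: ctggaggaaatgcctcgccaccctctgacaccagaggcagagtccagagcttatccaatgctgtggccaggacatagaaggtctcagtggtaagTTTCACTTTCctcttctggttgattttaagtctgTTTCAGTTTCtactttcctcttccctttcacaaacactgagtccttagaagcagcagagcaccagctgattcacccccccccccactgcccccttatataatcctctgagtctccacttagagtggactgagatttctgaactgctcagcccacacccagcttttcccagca
Eif2ak2, chr17:78882523-78882822, minus strand: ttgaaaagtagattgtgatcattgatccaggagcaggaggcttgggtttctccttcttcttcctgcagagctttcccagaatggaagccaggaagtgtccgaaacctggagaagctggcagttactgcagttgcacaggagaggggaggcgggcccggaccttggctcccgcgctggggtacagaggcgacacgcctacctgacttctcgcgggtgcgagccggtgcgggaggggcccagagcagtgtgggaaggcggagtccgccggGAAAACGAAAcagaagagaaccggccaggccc
Stat2, chr10:128270248-128270547, plus strand: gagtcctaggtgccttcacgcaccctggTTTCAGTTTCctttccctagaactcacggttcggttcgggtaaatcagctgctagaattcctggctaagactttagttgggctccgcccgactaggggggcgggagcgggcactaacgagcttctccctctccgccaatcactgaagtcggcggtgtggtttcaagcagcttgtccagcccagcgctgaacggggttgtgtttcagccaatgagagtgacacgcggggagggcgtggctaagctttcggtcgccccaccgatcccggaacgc

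Ifit1 and Ifit3 carried paired cores upstream, 104 and 85 bases before the start in Ifit1 and 156 and 122 bases in Ifit3. In Ifi205 one core lay 134 bases before the start and the other 23 bases after it, while the Eif2ak2 core lay 18 bases after the start. The Stat2 core lay 222 bases before the start. The genes shown differed in direction. After 3x4Gy, Ifi205 had a log2 fold change of 1.01 and Ifit1 one of -0.60. Whether direction went with the element over the whole set was not tested.

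Of the 35 genes after 3x4Gy, 2 were higher than in 3x0Gy at day 5 (Ifi205 and Parp14), 1 was lower (Ifit1) and 32 did not pass the test. edgeR called 12.3% of all 12021 genes tested, 5.2% higher and 7.09% lower. The median log2 fold change of the 35 genes was 0.10, against -0.004 over all genes. Positive values numbered 23 of 35, against 49.52% of all genes. No gene of the set separated the groups without overlap, against 3.91% of all genes that did so higher and 5.67% lower. Since the RNA is bulk, fewer cells of a type and less RNA per cell cannot be told apart in any of these values.

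Ifi205 (chr1:174011998-174031810, minus strand, GRCm38) belongs to the PYHIN family of nuclear DNA-binding proteins. After 3x4Gy its lowest, median and highest values were 44.4, 89.1 and 120.0 CPM, against 37.3, 46.7, 39.9 and 49.1 CPM in the 3x0Gy libraries. The groups touched only at the lowest 3x4Gy library, and the means were 87.1 ± 29.7 (SD, n = 6) and 43.3 ± 5.6 CPM (n = 4). The log2 fold change was 1.01 (standard error, SE, 0.25; edgeR quasi-likelihood adjusted p = 0.00927). The family's other 2 members here, Ifi203 and Ifi204, had 0.05 and 0.06 and were not called. These genes lie close together and resemble each other, so how reads were split between them is uncertain.

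Parp14 (chr16:35832874-35871544, minus strand) encodes a mono-ADP-ribosyltransferase of immune cells. It had 159, 284 and 318 CPM as lowest, median and highest after 3x4Gy, against 184, 121, 164 and 161 CPM after 3x0Gy. The groups overlapped, since the lowest 3x4Gy library lay below 3 of the 4 mock libraries. The means were 261 ± 58.7 CPM (n = 6) and 158 ± 26.6 CPM (n = 4). On the log2 scale the change was 0.73 (SE 0.18, edgeR adjusted p = 0.00858).

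Ifit1 (chr19:34640871-34650009, plus strand), which encodes a protein that binds RNA lacking the host cap methylation, moved the other way. It had 26.7, 37.2 and 47.6 CPM as lowest, median and highest after 3x4Gy, against 67.6, 61.7, 46.4 and 50.9 CPM after 3x0Gy. The 2 highest 3x4Gy libraries lay above the lowest mock library and the other 4 below all mock libraries. The means were 37.4 ± 8.9 CPM (n = 6) and 56.6 ± 9.7 CPM (n = 4). On the log2 scale the change was -0.60 (SE 0.19, edgeR adjusted p = 0.0437). Ifit3, of the same family, had -0.66 (SE 0.22, adjusted p = 0.0509) and Ifit2 had 0.44 (SE 0.38, adjusted p = 0.458). The 1x0Gy mock of the same day had lower means than 3x0Gy, 38.7 CPM for Ifit1 and 113.6 CPM for Ifit3. Both genes were higher in 3x0Gy than in 1x0Gy without overlap, as were 2.04% of all genes. Their log2 fold changes between the mocks were 0.54 and 0.71 (edgeR adjusted p = 0.836 for each). The part of this mock gap in the Ifit1 call was not tested. Mouse Ifit1 and Ifit3 have close relatives beside them, so how reads were divided among these is uncertain.

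The Ifit1 call was not stable. It was lost on leaving out any of 6 single libraries, at -0.59 (adjusted p = 0.0664), -0.48 (0.0909) and -0.53 (0.081) without 3x4Gy library 1, 2 or 3. Without 3x0Gy library 1, 2 or 4 it stood at -0.50 (adjusted p = 0.125), -0.56 (0.0904) and -0.65 (0.0562). Ifi205 and Parp14 were called without any single library. With the mean of epithelial and fibroblast markers per library as a covariate, none of the 3 was called (Ifi205 0.53, adjusted p = 0.367; Parp14 0.54, 0.252; Ifit1 -0.90, 0.0943). With only the 3x4Gy and 3x0Gy libraries in the fit, Parp14 (0.71, adjusted p = 0.0538) and Ifit1 (-0.61, 0.0684) were also lost.

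Those covariate genes moved with the treatment. The 8 fibroblast markers, Col1a1 and Postn among them, summed to between 15.9 and 49.4 CPM after 3x4Gy and between 91.3 and 208 CPM after 3x0Gy, and 6 of the 6 tested were lower. Epithelial markers summed to between 166 and 728 CPM after 3x4Gy and between 483 and 1102 CPM after 3x0Gy, with 2 of 9 lower. Monocyte markers summed to between 809 and 1440 CPM after 3x4Gy and between 443 and 850.3 CPM after 3x0Gy, with Ccr2 higher and F13a1 lower among 7. Endothelial markers summed to between 122 and 155 CPM after 3x4Gy and between 58.6 and 77.7 CPM after 3x0Gy, with Kdr and Pecam1 higher among 5 tested and Cldn5 at 0 after 3x4Gy. Among the other lists, Cd5 of T cells, Ccr7 and Zbtb46 of conventional dendritic cells and Klrk1 of NK cells were higher, and Klrb1c of NK cells was lower. Since the covariate genes moved with the treatment, the covariate fit cannot set the part of epithelial cells and fibroblasts apart from the treatment. The part of the other lists in the interferon-gene values was not tested.

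By role, the transcription factors Irf7, Irf9 and Stat2 had positive values in 3 of 3 and a median of 0.16, with none called. Irf7 had 278, 343 and 447 CPM as lowest, median and highest after 3x4Gy, against 285, 452, 259.6 and 269 CPM after 3x0Gy. Its groups overlapped across almost the whole range (0.16, SE 0.21, adjusted p = 0.64). The RNA sensors Ddx58 (RIG-I), Ifih1 (MDA5) and Dhx58 (LGP2), which detect viral RNA in the cytosol, had 0.07, 0.25 and -0.14. Zbp1, a sensor of left-handed nucleic acid, and Eif2ak2, the RNA-activated kinase PKR, had 0.42 (adjusted p = 0.0829) and 0.46 (0.0961).

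The OAS family, whose enzymes make the 2′-5′-linked adenylate that activates RNase L, had a median of -0.04. Its highest value was that of Oasl1 (0.60, SE 0.20, adjusted p = 0.0509), which inhibits Irf7 translation in mouse. Oasl1 had 53.2, 83.1 and 124.8 CPM as lowest, median and highest after 3x4Gy, against 47.4, 81.8, 46.4 and 46.7 CPM after 3x0Gy, the high mock value being that of library 2. Oasl2, an OAS-like protein, had 92.3, 126 and 150 CPM as lowest, median and highest after 3x4Gy, against 133, 163, 100.2 and 109.6 CPM after 3x0Gy (log2 fold change -0.06). The groups overlapped throughout.

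The GTPases Mx1 and Mx2 had 0.05 and -0.33. Mx1 is known to carry a disrupted, inactive allele in C57BL/6. It had 20.1, 29.1 and 38.7 CPM as lowest, median and highest after 3x4Gy, against 23.0, 23.9, 32.0 and 31.9 CPM after 3x0Gy. The 3x0Gy libraries all fell within the 3x4Gy range.

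Isg15, a ubiquitin-like modifier, had 280.0, 662 and 886 CPM as lowest, median and highest after 3x4Gy, against 494, 727, 344 and 454 CPM after 3x0Gy (0.32, adjusted p = 0.402). Usp18, which removes it and dampens receptor signalling, had -0.25. Rsad2 (viperin), which makes a chain-terminating nucleotide, had 199, 337 and 468 CPM as lowest, median and highest after 3x4Gy, against 388, 89.3, 276 and 371 CPM after 3x0Gy. The value of 89.3 CPM is that of 3x0Gy library 2, and the other 3 mock libraries lay within the 3x4Gy range (0.28, adjusted p = 0.544). Without 3x0Gy library 2, 3 of the 35 genes were called (Oasl1, Ifi205 and Parp14) and the median log2 fold change was 0.02.

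Of the other interferon-induced genes, Ifi27l2a, a small mitochondrial protein, had 0.40 after 3x4Gy (adjusted p = 0.107) and Ly6e, a lipid-anchored surface protein that blocks virus entry, had 0.25. Trim30a, which restrains Toll-like receptor signalling in mouse, had 0.15. Ifi35 had 0.16, with 16.8% of its exon bases shared with Gm11626 on the opposite strand, so without a known strand setting their reads cannot be told apart. The other genes of this kind, Ifi44, Rtp4 and Xaf1, had -0.26, -0.25 and 0.19, and none was called.

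**Figure D1:**
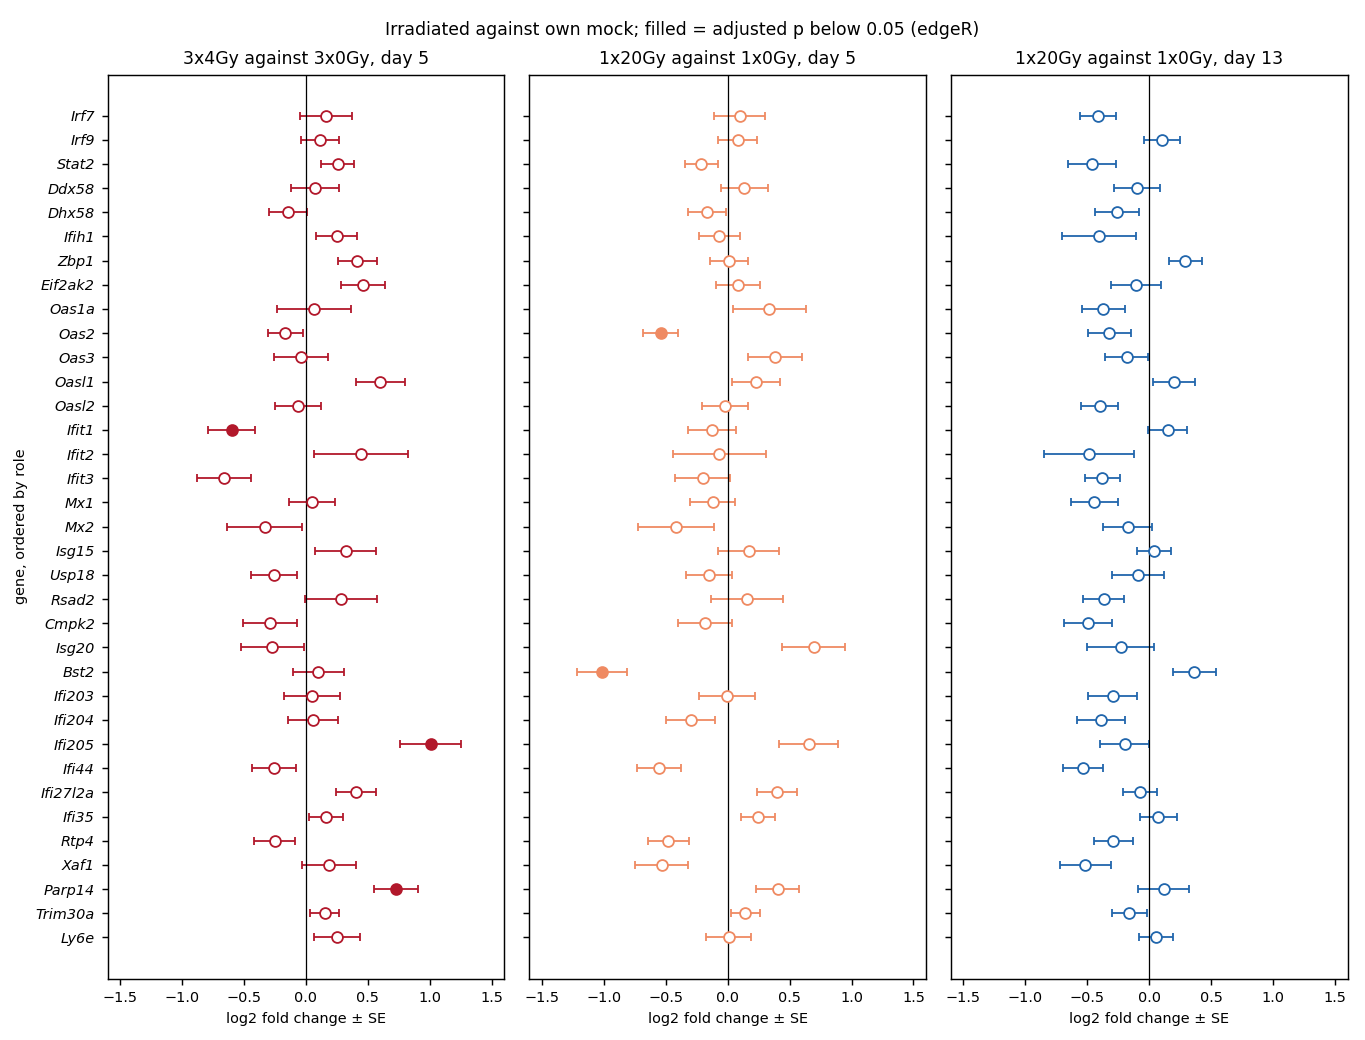
Log2 fold change with its SE for each of the 35 genes, ordered by role, in the 3 comparisons of an irradiated group with its own mock (3x4Gy at day 5, 1x20Gy at day 5, 1x20Gy at day 13). Filled points are genes called by edgeR at an adjusted p below 0.05. Ifi205 and Parp14 lie right and Ifit1 left after 3x4Gy, Bst2 and Oas2 lie left after 1x20Gy at day 5, and no point is filled at day 13, where 26 of 35 lie left of 0.

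After 1x20Gy at day 5, 2 of the 35 genes were lower than in 1x0Gy (Bst2 and Oas2), none was higher and 33 did not pass the test. edgeR called 8.55% of all genes, 3.67% higher and 4.88% lower. The median of the 35 was -0.01, against 0.02 over all genes, with 17 of 35 positive, against 52.96% of all genes. Bst2, Oas2 and Ifi44 were lower without overlap between groups, against 6.07% of all genes, and none was higher without overlap, against 5.44%.

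Bst2 (chr8:71534255-71537456, minus strand) encodes tetherin, which holds budding virions at the cell surface and marks pDC in the mouse. After 1x20Gy its lowest, median and highest values were 83.0, 125 and 143 CPM, against 284, 217, 189.8 and 280.2 CPM in the 1x0Gy libraries. All 6 irradiated libraries lay below all 4 mock libraries, with means of 120.3 ± 21.7 CPM (n = 6) and 243 ± 46.7 CPM (n = 4). The log2 fold change was -1.01 (SE 0.20, edgeR adjusted p = 0.00273). It was called under 20 of 20 alternatives, at values between -1.34 and -0.93.

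Oas2 (chr5:120730333-120749853, minus strand), one of the OAS enzymes, had 23.8, 30.5 and 35.2 CPM as lowest, median and highest after 1x20Gy, against 48.1, 37.2, 50.1 and 39.8 CPM after 1x0Gy. The groups did not overlap, and the means were 30.1 ± 4.6 CPM (n = 6) and 43.8 ± 6.3 CPM (n = 4). The log2 fold change was -0.54 (SE 0.14, adjusted p = 0.0157). The call was lost without 1x0Gy library 1 (-0.49, adjusted p = 0.0562) or library 3 (-0.47, 0.0781) and with the marker covariate (-0.75, 0.0516). Of the other OAS genes, Oas1a had 0.34, Oas3 had 0.38, Oasl1 had 0.23 and Oasl2 had -0.02, none of them called. Oas1a has several close relatives in its gene cluster, which makes its count uncertain.

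Ifi44, an interferon-induced cytoplasmic protein, missed the threshold with -0.55 (SE 0.18, adjusted p = 0.0573). It had 49.95, 67.1 and 82.0 CPM as lowest, median and highest after 1x20Gy, against 84.5, 95.4, 106 and 107 CPM after 1x0Gy, which leaves a gap between the groups. Rtp4 had -0.48 (adjusted p = 0.0762) and Xaf1, an inhibitor of the anti-apoptotic XIAP, had -0.53 (0.134). On the positive side, Isg20, an RNA exonuclease, had 0.69 (0.0933), Ifi205 had 0.65 (0.0986) and Parp14 had 0.41 (0.16). The 2 genes called higher after 3x4Gy were thus positive here without passing.

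The hub and effector genes overlapped between 1x20Gy and 1x0Gy. Irf7 had 197, 257 and 344 CPM as lowest, median and highest after 1x20Gy, against 153, 266, 301 and 274 CPM after 1x0Gy. Isg15 had 378, 538 and 612 CPM as lowest, median and highest after 1x20Gy, against 449.5, 498, 438 and 428 CPM after 1x0Gy. The Isg15 mock libraries all lay within the irradiated range, and the Irf7 mock libraries reached below it (log2 fold changes 0.17 and 0.10, adjusted p = 0.743 and 0.835).

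Ifit1 had 23.1, 35.3 and 51.8 CPM as lowest, median and highest after 1x20Gy, against 37.5, 36.8, 41.1 and 39.6 CPM after 1x0Gy. Rsad2 had 199, 303 and 362 CPM as lowest, median and highest after 1x20Gy, against 255, 267, 265 and 239 CPM after 1x0Gy. In both genes the irradiated libraries lay on either side of a narrow mock range. Mx1 (18.02, 24.9 and 29.9 CPM after 1x20Gy, against 27.1, 26.8, 28.7 and 24.9 CPM after 1x0Gy) and Oasl2 (77.9, 96.0 and 129 CPM after 1x20Gy, against 72.6, 97.1, 124 and 115 CPM after 1x0Gy) also overlapped, at -0.12 and -0.02.

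Epithelial markers summed to between 155 and 514 CPM after 1x20Gy and between 433 and 627 CPM after 1x0Gy, with 5 of 9 lower. Fibroblast markers summed to between 12.01 and 66.8 CPM after 1x20Gy and between 55.5 and 198 CPM after 1x0Gy, with 2 of 6 tested lower. Neutrophil markers summed to between 37.6 and 548 CPM after 1x20Gy and between 24.3 and 86.0 CPM after 1x0Gy, with Cxcr2 and Mmp9 higher among 7 tested and Ly6g at 0 in both groups. Among the other lists, the T cell markers Cd28 and Cd5, the monocyte marker Ccr2, the endothelial marker Kdr and Zbtb46 of conventional dendritic cells were higher.

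Bst2 was called with the epithelial and fibroblast marker mean as a covariate. Since these markers also moved with the treatment, that fit cannot set the part of such cells apart from the treatment. The part of the other cell types was not tested. Among the 8 pDC markers, only Tcf4, a transcription factor, had a lower mean after 1x20Gy than after 1x0Gy. It had between 116 and 205 CPM after 1x20Gy and between 197 and 242 CPM after 1x0Gy. Siglech, a pDC surface lectin, had between 2.18 and 57.1 CPM after 1x20Gy and between 4.42 and 29.6 CPM after 1x0Gy. The 8 pDC markers summed to between 158 and 354.5 CPM after 1x20Gy and between 246 and 351 CPM after 1x0Gy. Most of the sum after 1x0Gy was Tcf4, with a mean of 222.9 CPM, where the median sum was 277.6 CPM. The median log2 fold change of the 8 markers was 0.38, and none was called.

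**Figure D2:**
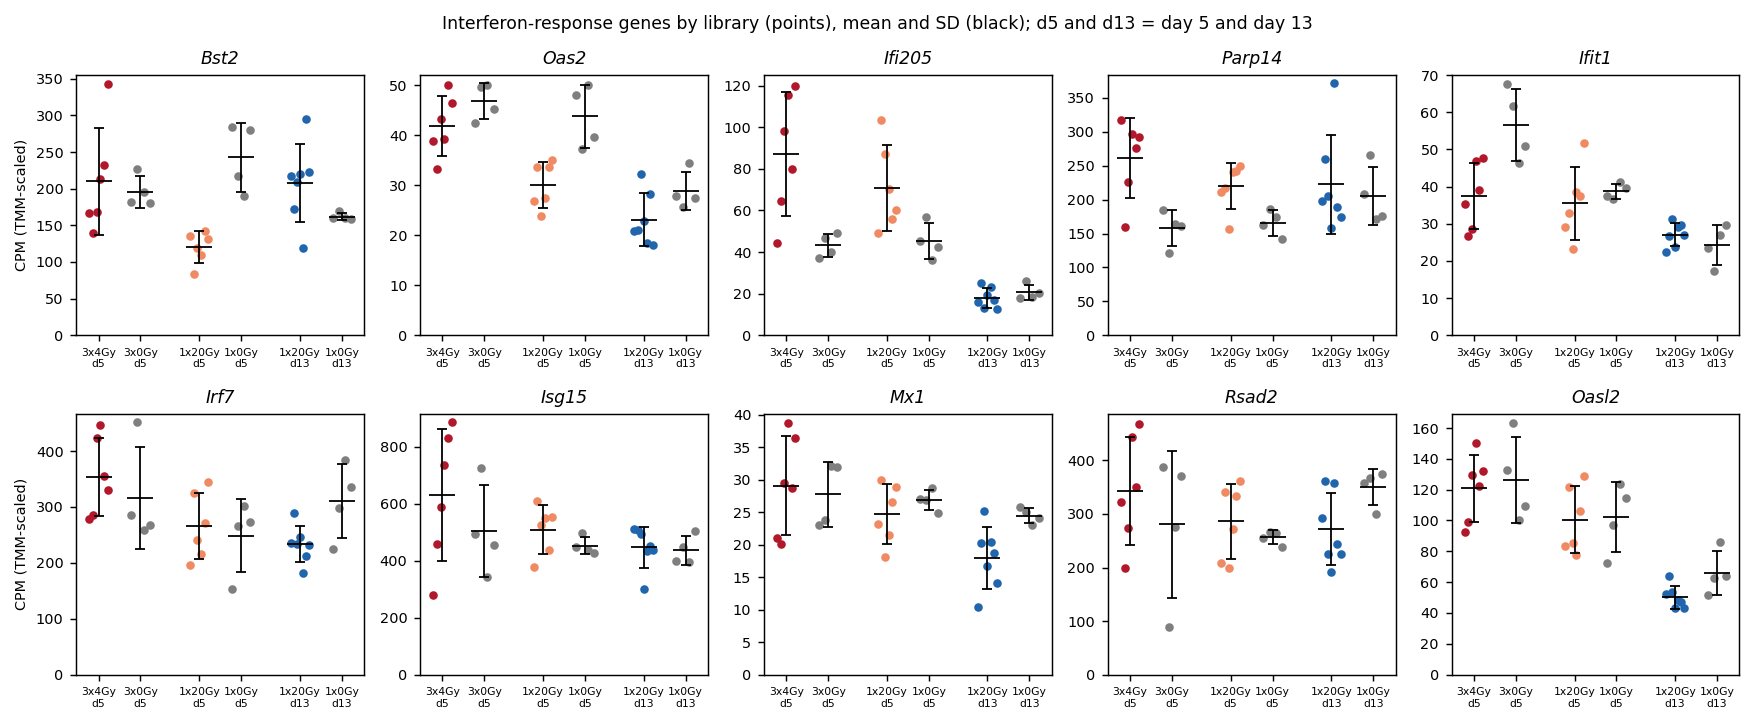
CPM (TMM-scaled) of 10 interferon response genes in every library, one point each, with the group mean and SD in black, for 3x4Gy and 3x0Gy at day 5, 1x20Gy and 1x0Gy at day 5, and 1x20Gy and 1x0Gy at day 13. Bst2 and Oas2 are the genes whose 1x20Gy and 1x0Gy points do not overlap at day 5, while Irf7, Isg15, Mx1, Rsad2 and Oasl2 overlap there.

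At day 13 after 1x20Gy, no gene of the 35 was called, while edgeR called 8.05% of all 11071 genes tested, 4.22% higher and 3.83% lower. DESeq2 and limma voom each called 1, Ifi44. Values below 0 were in the majority: 26 of 35 were negative and 9 positive, against 50.72% positive over all genes, and the median was -0.23, against 0.01 over all genes. Unadjusted p fell below 0.05 for 11 of the 35 and for 2583 of all 11071 genes. No gene separated the groups, against 3.31% of all genes higher and 3.97% lower.

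The lowest adjusted p was that of Ifi44 (-0.53, SE 0.16, adjusted p = 0.057). Its lowest, median and highest values were 43.9, 55.3 and 82.6 CPM after 1x20Gy, against 65.6, 84.1, 88.4 and 86.6 CPM after 1x0Gy. A single irradiated library, library 2 with 82.6 CPM, reached above the lowest mock library, and without it Ifi44 and Xaf1 were called.

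Irf7 followed with -0.41 (SE 0.15, adjusted p = 0.0912). It had 183, 234 and 289 CPM as lowest, median and highest after 1x20Gy, against 226, 297, 383 and 337 CPM after 1x0Gy. The median irradiated library lay near the lowest mock library. Of the parts of ISGF3, Stat2 had -0.46 and Irf9 had 0.10, neither of them called.

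Ifit3 had -0.38 (adjusted p = 0.107), Oasl2 -0.40 (0.112), Cmpk2, a mitochondrial nucleotide kinase, -0.50 (0.135) and Mx1 -0.45 (0.165). Oasl2 had 43.1, 48.2 and 63.9 CPM as lowest, median and highest after 1x20Gy, against 51.8, 62.6, 85.7 and 64.2 CPM after 1x0Gy. Mx1 had 10.4, 18.7 and 25.2 CPM as lowest, median and highest after 1x20Gy, against 25.7, 25.1, 23.0 and 24.0 CPM after 1x0Gy. In both genes the upper end of the irradiated range reached into the mock values.

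Rsad2 had 192, 245 and 362 CPM as lowest, median and highest after 1x20Gy, against 359, 368, 300.0 and 374 CPM after 1x0Gy (-0.37, adjusted p = 0.191). Isg15 had 300.4, 453 and 511 CPM as lowest, median and highest after 1x20Gy, against 399, 449.8, 395 and 503 CPM after 1x0Gy (0.04). Ifit1 had 22.5, 26.9 and 31.4 CPM as lowest, median and highest after 1x20Gy, against 23.6, 17.3, 27.0 and 29.6 CPM after 1x0Gy (0.15). Of these, Isg15 and Ifit1 had values above 0 and Rsad2 one below, with overlap between the groups in each.

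Oas2 had 18.2, 20.98 and 32.3 CPM as lowest, median and highest after 1x20Gy, against 27.9, 25.6, 34.5 and 27.5 CPM after 1x0Gy (-0.32). Ifi205 had 12.8, 16.9 and 25.1 CPM as lowest, median and highest after 1x20Gy, against 17.8, 25.9, 18.6 and 20.6 CPM after 1x0Gy (-0.20). Parp14 had 159, 198 and 372 CPM as lowest, median and highest after 1x20Gy, against 208, 265, 172 and 176 CPM after 1x0Gy (0.11). All of these overlapped.

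Bst2 had the highest value of the set at day 13, 0.36 (SE 0.18, adjusted p = 0.228). It had 119, 218 and 295 CPM as lowest, median and highest after 1x20Gy, against 160.0, 169, 159.7 and 159 CPM after 1x0Gy. Most irradiated libraries lay above the tight mock group, but library 5 with 119 CPM lay below it. Without 1x20Gy library 5, Bst2 was called higher (0.46, adjusted p = 0.0315), with Stat2 and Ifih1 called lower. Without 1x0Gy library 1, Irf7 was the only gene of the set called.

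At this day the sorted cells also differed in their markers. NK cell markers summed to between 187 and 349.5 CPM after 1x20Gy and between 95.2 and 172 CPM after 1x0Gy, with 5 of 6 higher. Macrophage markers summed to between 6459 and 8924 CPM after 1x20Gy and between 8964 and 11730 CPM after 1x0Gy, with 4 of 8 lower. T cell markers were higher in 3 of 9 tested, and fibroblast markers lower in 4 of 6 tested, at between 14.2 and 32.9 CPM after 1x20Gy and between 40.4 and 79.0 CPM after 1x0Gy. Neutrophil markers summed to between 96.2 and 243 CPM after 1x20Gy and between 40.45 and 92.2 CPM after 1x0Gy, with Mmp9, S100a8 and S100a9 higher among 5 tested and Ly6g at 0 in both groups. Endothelial markers were higher in 2 of 4 tested, and the monocyte marker Plac8 was the 1 higher of 7. Of 8 epithelial markers tested, 2 were higher (Cldn4 and Krt7) and 1 lower (Krt14).

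With the epithelial and fibroblast marker mean as a covariate at day 13, Cmpk2 was called lower (-0.95, adjusted p = 0.0135) and the median of the 35 was -0.30. Fibroblast markers moved with the treatment at this day too, so the covariate fit cannot set the part of such cells apart from the treatment. The part of the other cell types in the interferon-gene values was not tested.

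How tightly the data bound a change can be read from the SE. The interval of 2 SE on each side lay within a 2-fold change (log2 of 1 either way) for 31 of 35 genes after 3x4Gy, 31 after 1x20Gy at day 5 and 33 after 1x20Gy at day 13. The exceptions were Ifit2, Ifit3, Ifi205 and Parp14 after 3x4Gy, Mx2, Isg20, Bst2 and Ifi205 after 1x20Gy at day 5, and Ifih1 and Ifit2 at day 13.

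The mean log2 CPM over the 35 genes, with a prior count of 2, gives each library 1 value and is a description with no test. The 3x4Gy group had 6.51 ± 0.25 (SD, n = 6) and the 3x0Gy group 6.44 ± 0.13 (n = 4). For 1x20Gy at day 5 it was 6.26 ± 0.20 (n = 6), against 6.32 ± 0.04 after 1x0Gy (n = 4). At day 13 it was 6.09 ± 0.14 after 1x20Gy (n = 7) and 6.29 ± 0.08 after 1x0Gy (n = 4). The irradiated groups had the wider spread on each occasion.

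In some groups a single library held the highest or the lowest value of many of the genes. In the 3x4Gy group, library 2 held the lowest value of 20 of the 35 genes and library 6 the highest of 13. In the 1x20Gy group of day 5, library 6 held the highest value of 18 genes and library 3 the lowest of 16. In the 3x0Gy group, library 1 held the highest value of 18 genes, while library 2 held the lowest of 14 and the highest of 9. Other libraries were at both ends, such as 1x0Gy library 3 of day 5 with the highest of 11 and the lowest of 11. Leaving out 3x4Gy library 2 gave 5 called genes in place of 3, all higher (Zbp1, Eif2ak2, Oasl1, Ifi205 and Parp14). The median SD of log2 CPM of the 35 genes was at or below that of all genes in 5 of the 6 groups, for example 0.33 after 3x4Gy, against 0.34 over all genes. In the day 13 1x0Gy group it was 0.27, against 0.26.

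**Figure D3:**
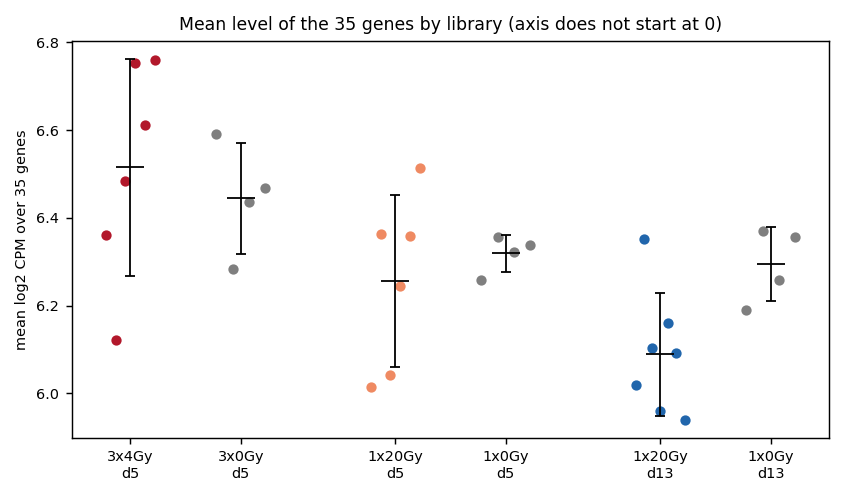
Mean log2 CPM over the 35 interferon response genes in each library (points), with the group mean and SD in black, for 3x4Gy, 3x0Gy, 1x20Gy and 1x0Gy at day 5 and 1x20Gy and 1x0Gy at day 13; the axis does not start at 0. The 3x4Gy libraries spread between 6.12 and 6.76 and enclose the 3x0Gy libraries, which lie between 6.28 and 6.59.

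The regimens were compared directly at day 5. No gene of the 35 was called between 3x4Gy and 1x20Gy by edgeR, which called 0.025% of all genes (0.0166% higher and 0.00832% lower). Unadjusted p was below 0.05 for 11 of the 35 and for 826 of all 12021 genes. DESeq2 called 2, Bst2 (0.81, adjusted p = 0.018) and Stat2 (0.48, 0.0478), and limma voom called none. Of the 35, 33 had positive values, Isg20 and Oas1a being the exceptions, against 50.89% of all genes. Their median was 0.26, against 0.004 over all genes.

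No gene of the 35 was called between the mock groups. Between 3x0Gy and 1x0Gy, 27 of 35 genes were positive with a median of 0.13, against 53.79% and 0.03 over all genes, and edgeR called 0% of all genes. Unadjusted p fell below 0.05 for 4 of the 35 and 667 of all 12021 genes. Ifit1, Ifit3 and Usp18 were higher in 3x0Gy without overlap, against 2.04% of all genes, and none was lower without overlap, against 1.76%. Ifit3 had 236, 203, 148 and 158 CPM in 3x0Gy libraries, against 83.7, 114, 135 and 122 CPM in 1x0Gy libraries (0.71, adjusted p = 0.836).

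Because each regimen has its own mock, the gap between the responses was tested as well. The 3x4Gy response minus the 1x20Gy response had a median of 0.13 over the 35 genes and 25 positive values, with none called among the 35 and 0% of all genes called. Without 3x0Gy library 2, none of the 35 was called in this test or between the mocks. At an unadjusted p below 0.05 there were 4 of the 35 and 714 of all 12021 genes. The widest gap was that of Bst2 (1.12, adjusted p = 0.736), and the lowest that of Isg20 (-0.97). The interval of 2 SE lay within a 2-fold difference for 26 of 35 genes.

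Bst2 also had the highest value between the regimens, 0.81 (SE 0.18, adjusted p = 0.269), with 0.10 after 3x4Gy and -1.01 after 1x20Gy, each against its own mock. The 3x4Gy libraries had 166.5, 139, 169, 213, 232 and 343 CPM of Bst2, and the 3x0Gy libraries 182, 227, 195 and 180.1 CPM. Libraries 1, 2 and 3 of 3x4Gy lay below all 4 mock libraries, and libraries 4, 5 and 6 lay above at least 3 of them.

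**Figure D4:**
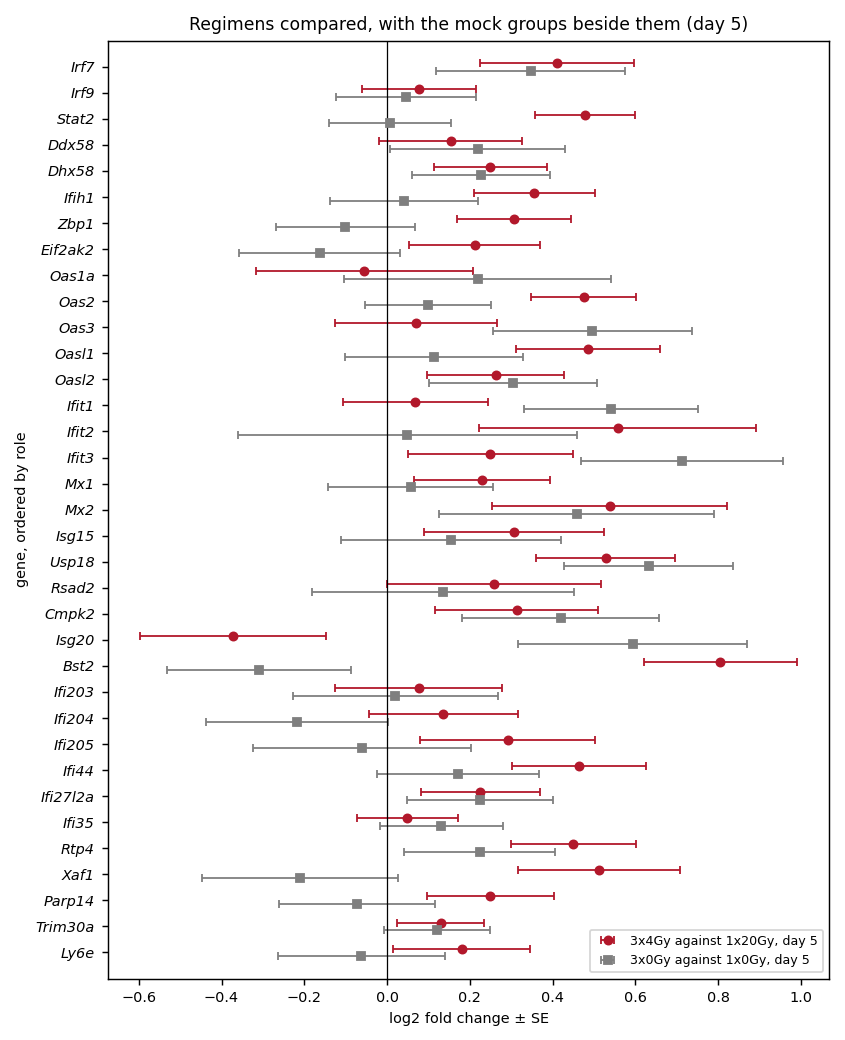
Log2 fold change with its SE for the 35 genes, ordered by role, for 3x4Gy against 1x20Gy (circles) and, beside it, for the mock groups 3x0Gy against 1x0Gy (squares), both at day 5. The circles lie right of 0 for 33 genes and the squares for 27, and Bst2 is the gene whose circle lies farthest right, with its square at -0.31.

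The 1x20Gy response at day 13 was set against that at day 5 in a fit of all 31 libraries. Bst2 was the only gene of the 35 called, 1.40 higher on the log2 scale at day 13 (SE 0.29, edgeR adjusted p = 0.045), while edgeR called 0.423% of all 12061 genes, 0.207% higher and 0.216% lower. The call lay close to the threshold. It was lost with limma voom (1.35, adjusted p = 0.0572) and on leaving out any of 13 single libraries, with values between 1.30 and 1.46 and adjusted p between 0.0501 and 0.0922. These were 1x20Gy libraries 2, 4 and 5 and 1x0Gy libraries 1, 2 and 4 of day 5, and 1x20Gy libraries 1, 4 and 6 and all 4 1x0Gy libraries of day 13. Over all 31 alternatives adjusted p ran between 0.00261 and 0.0922, and the value stayed between 1.29 and 1.59. Of the other 34 genes, Isg20 had the lowest value (-0.90, adjusted p = 0.291). The median of the 35 was -0.17, against 0.01 over all genes.

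Bst2 is both an interferon target and a pDC marker, so the pDC markers are given beside it. At day 13 Siglech had 21.6, 29.8 and 44.2 CPM as lowest, median and highest after 1x20Gy, against 12.6, 16.2, 5.02 and 11.3 CPM after 1x0Gy. Spib, a transcription factor of pDC, had 17.5, 26.1 and 35.3 CPM as lowest, median and highest after 1x20Gy, against 10.7, 10.52, 3.97 and 12.01 CPM after 1x0Gy. Neither overlapped between groups, with log2 fold changes of 1.47 (adjusted p = 0.00313) and 1.48 (0.00294).

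Of the 7 pDC markers tested at day 13, 4 were higher, the others being Ccr9 (1.23, adjusted p = 0.0101), a chemokine receptor, and Pacsin1 (0.91, 0.0354). Tcf4 had a negative value and was not called (-0.40, adjusted p = 0.0608), with 6 of 7 irradiated libraries below all mock libraries. Klk1, Cox6a2 and Cd209d were not called either and overlapped between the groups, with higher means after 1x20Gy. The summed pDC level ran between 256 and 330.2 CPM after 1x20Gy and between 222 and 265 CPM after 1x0Gy. Tcf4 made up between 44.3% and 59.5% of it after 1x20Gy and between 68.1% and 86.2% after 1x0Gy. At day 5 none of the 8 was called in any of these comparisons.

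Within 3x4Gy at day 5, the libraries with more Siglech had less Bst2. Siglech had 43.6, 37.1 and 41.3 CPM in libraries 1, 2 and 3 of 3x4Gy, in which Bst2 had at most 169 CPM. It had 0.886, 1.604 and 2.18 CPM in libraries 4, 5 and 6, in which Bst2 had at least 213 CPM. The epithelial markers summed to between 443 and 728 CPM in libraries 1, 2 and 3 and between 166 and 228 CPM in libraries 4, 5 and 6. Macrophage markers split the same libraries, with between 5961 and 7407 CPM in libraries 1, 2 and 3. Libraries 4, 5 and 6 had between 9615 and 12710 CPM of them. After 1x20Gy at day 5, libraries 2, 3 and 4 had at least 21.8 CPM of Siglech and at most 119.6 CPM of Bst2. Libraries 1, 5 and 6 had at most 5.52 CPM of Siglech and at least 131 CPM of Bst2. Macrophage markers summed to between 5016 and 8103 CPM in libraries 2, 3 and 4 of this group. They summed to between 11710 and 13270 CPM in libraries 1, 5 and 6. Epithelial marker sums overlapped between these sets of libraries. The other groups did not have this order of Siglech and Bst2. In day 13 1x20Gy, library 5 had the lowest Siglech (21.6 CPM) and the lowest Bst2 (119 CPM). In 1x0Gy of day 5, library 1 had the highest of both (29.6 and 284 CPM). Its macrophage markers summed to 10450 CPM, against 14650 CPM in library 3, which had the lowest Bst2 (189.8 CPM). The part of pDC, macrophages or epithelial cells in the Bst2 values was not tested.

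**Figure D5:**
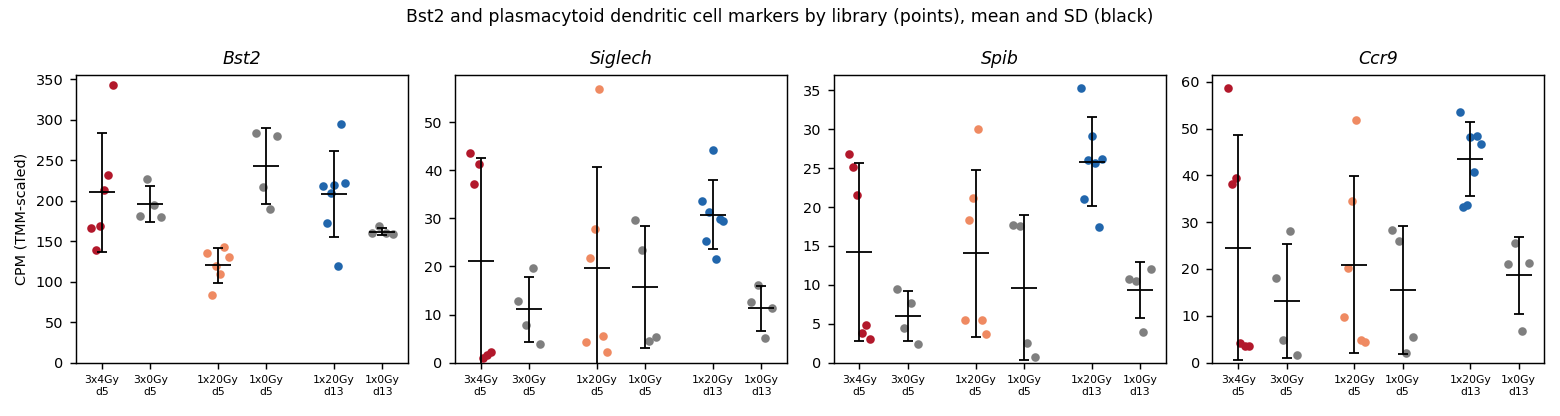
CPM (TMM-scaled) of Bst2 and of the pDC markers Siglech, Spib and Ccr9 in every library (points), with the group mean and SD in black, for 3x4Gy, 3x0Gy, 1x20Gy and 1x0Gy at day 5 and 1x20Gy and 1x0Gy at day 13. Bst2 is lower after 1x20Gy than after 1x0Gy at day 5, where the pDC markers shown overlap between these groups. At day 13 the markers shown lie above their mock, while Tcf4, not shown, had a lower mean after 1x20Gy than after 1x0Gy.

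The ligands themselves were near the limit of detection. Of 18 type I interferon genes, 15, the listed interferon alpha genes among them, had no count in any of the 31 libraries, and 27 counts fell on the other 3 together. Ifnb1, the interferon beta gene, had 5 counts over the 6 libraries of 3x4Gy, against 0 over the 4 of 3x0Gy, where 3 counts would be 0.177 CPM. It had 3 counts over the 1x20Gy libraries of day 5, against 0 over 1x0Gy, where 3 counts would be 0.121 CPM. At day 13 it had 6 counts after 1x20Gy and 2 after 1x0Gy. Over the 18 genes together there were 11 counts after 3x4Gy, against 0 after 3x0Gy, and 6 after 1x20Gy, against 0 after 1x0Gy at day 5. At day 13 there were 7 after 1x20Gy and 3 after 1x0Gy. The 11 counts after 3x4Gy were unevenly spread. Ifnk had 5 of them, 4 in 1 library, and 1 library held 5 of the 11. In CPM without TMM scaling, the pooled level was 0.375 ± 0.43 (SD, n = 6) after 3x4Gy and 0.203 ± 0.17 (n = 6) after 1x20Gy at day 5, with all mock libraries of that day at 0. Two-sided exact permutation tests over libraries were added after these counts were seen. These permutation tests gave p = 0.143 for each regimen at day 5 and p = 0.636 at day 13. Adjusted over the 3 comparisons, the permutation p-values were 0.214, 0.214 and 0.636. In each day 5 comparison, 4 irradiated libraries and no mock library had a count, which is the most extreme split of 4 libraries with a count. With only 4 such libraries, the day 5 tests could not have passed the threshold used for calls, however large those counts. They cannot decide whether the ligands differed. The limits given for counts of 0 cover counting error only.

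Other genes of the pathway came from fixed lists. Their calls stand beside those of all genes, of which 5.2% were called higher and 7.09% lower after 3x4Gy. After 1x20Gy these shares were 3.67% and 4.88% at day 5, and 4.22% and 3.83% at day 13. Of the receptor genes Ifnar1 and Ifnar2 and the kinase genes Jak1 and Tyk2, none was called in any comparison with own mock. Of 13 tested genes that sense nucleic acid or induce interferon, 2 were higher after 3x4Gy and none after 1x20Gy on either day. They were Ticam1, the adaptor TRIF of Toll-like receptors (0.51, adjusted p = 0.0282), and Tmem173, which encodes STING (0.46, 0.0435).

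Samhd1, which destroys deoxynucleotides and restrains interferon induction, was the only negative regulator of 7 tested that rose at day 5. It had 688, 802 and 909 CPM as lowest, median and highest after 3x4Gy, against a range of 470.2 to 580.2 CPM after 3x0Gy (0.66, SE 0.14, adjusted p = 0.00344). The groups did not overlap, and the call was lost only with the marker covariate. After 1x20Gy it had 661, 739 and 1042 CPM, against 459.6 to 656 CPM after 1x0Gy at day 5 (0.52, adjusted p = 0.0204). At day 13 the 1 such gene that rose was Socs1, an inhibitor of Jak kinases (1.01, adjusted p = 0.038). Trex1, also on this list, was at 0 in every group and was not tested. Of its exon bases, 100% are shared with Atrip on the same strand, so its level cannot be read here.

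Of 53 further interferon-stimulated genes tested at day 5, 3 rose after 3x4Gy: Pyhin1, the tables' symbol for Ifi209, at 0.48 (adjusted p = 0.0214), Trim30d at 0.42 (0.0444) and Slfn5 at 1.36 (0.0468). That share lay near the 5.2% of all genes called higher after 3x4Gy. After 1x20Gy at day 5, 1 rose, Slfn4 (1.59, adjusted p = 0.0231), and 1 fell, Lgals9, which encodes galectin-9 (-0.84, 0.046), against 3.67% and 4.88% of all genes. At day 13, 1 of 52 tested fell, Lgals3bp (-0.75, adjusted p = 0.00785).

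Genes linked to interferon gamma, of which 22 were tested, gave 3 higher after 3x4Gy, against 5.2% of all genes. Gbp5, a guanylate-binding protein, had 42.5, 72.8 and 146 CPM as lowest, median and highest after 3x4Gy, against a range of 19.2 to 39.2 CPM after 3x0Gy (1.26, SE 0.28, adjusted p = 0.00516). Cd274, which encodes PD-L1, had 1.07 (0.0231) and Tap1, the peptide transporter of MHC class I, 0.58 (0.00562). Gbp5 did not overlap between the groups, and it lost its call only with the marker covariate.

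After 1x20Gy at day 5, only Iigp1, an immunity-related GTPase, was called among these 22. It had between 108 and 160 CPM after 1x20Gy and between 225 and 287 CPM after 1x0Gy (-0.90, adjusted p = 0.0106). At day 13, 3 of 22 rose after 1x20Gy, Gbp5 (0.90, adjusted p = 0.00513), Irf1 (0.51, 0.0314) and Cd274 (0.68, 0.0266), and Iigp1 fell (-0.57, 0.0411). Gbp5 had between 60.4 and 93.1 CPM after 1x20Gy and between 29.5 and 48.3 CPM after 1x0Gy and was called under 20 of 20 alternatives. No gene of any of these pathway lists was called between 3x4Gy and 1x20Gy, nor between the mock groups. Of the cell type marker lists, 1 gene was called between the regimens, F13a1 of monocytes, lower after 3x4Gy.

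Many of these list calls lay near the threshold and were lost on leaving out any of several libraries, while their direction held. After 3x4Gy, the 6 genes that lost a call kept values near those above, such as 0.44 to 0.48 for Ticam1, 0.91 to 0.95 for Cd274 and 1.02 to 1.55 for Slfn5.  Ticam1 lost its call without 3x4Gy library 6 or 3x0Gy library 2, 3 or 4 (adjusted p up to 0.0735), and Tmem173 without 3x4Gy library 1, 5 or 6 or 3x0Gy library 1, 3 or 4 (up to 0.134). Pyhin1 lost it without 3x0Gy library 1 or 4 (up to 0.0797), and Cd274 without 3x4Gy library 5 or 6 or 3x0Gy library 1 or 2 (up to 0.0827). Trim30d lost it without 3x4Gy library 1, 3, 4 or 6 or 3x0Gy library 1, 2 or 4 (up to 0.107), and Slfn5 without 3x4Gy library 1, 4, 5 or 6 or any 3x0Gy library (up to 0.0968). Samhd1, Gbp5 and Tap1 were called after 3x4Gy without any single library. All 3 were lost with the marker covariate, and Tap1 also with only the groups compared. Over 20 alternatives of every kind, Slfn5 was called in 5, Trim30d in 6, Tmem173 in 8 and Ticam1 in 11. Pyhin1 and Cd274 were each called in 13.

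After 1x20Gy at day 5, Samhd1 lost its call without 1x0Gy library 1, 3 or 4 (adjusted p up to 0.104), and Slfn4 without 1x20Gy library 2 or 6 or 1x0Gy library 3 or 4 (up to 0.0881). Lgals9 lost it without 1x20Gy library 1, 2, 3, 4 or 5 or 1x0Gy library 1, 3 or 4 (up to 0.132), while Iigp1 was called without any single library. Over 20 alternatives Lgals9 was called in 11, Slfn4 in 13 and Samhd1 in 14. Iigp1 was called in 19 and lost with the marker covariate. At day 13, Irf1 lost it without 1x20Gy library 4 or 7 or 1x0Gy library 1, 2 or 3 (up to 0.0955), and Cd274 without 1x20Gy library 3 or 1x0Gy library 1, 2 or 3 (up to 0.108). Socs1 and Pacsin1 lost theirs without 1x20Gy library 4, 6 or 7 or 1x0Gy library 1, 2 or 3, and Socs1 also without 1x20Gy library 3 (up to 0.139 and 0.124). Iigp1 lost its day 13 call without 1x20Gy library 2, 3, 4, 6 or 7 or any 1x0Gy library (up to 0.199), while Gbp5, Lgals3bp, Siglech, Ccr9 and Spib were called without any single library. Over 20 alternatives at day 13, Iigp1 and Socs1 were called in 10, Pacsin1 in 11, Irf1 in 12 and Cd274 in 14. Lgals3bp was lost with the marker covariate only, and Gbp5, Siglech, Ccr9 and Spib were called in 20 of 20.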

How the data were processed

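RNA-seq of sorted CD45.2+ cells gave 31 libraries in 6 groups. The authors deposited whole-number read counts per gene symbol, 1 table per library. Per the submitters' processing notes, bcl2fastq 2.20.0.422, cutadapt 1.5, HISAT2 2.0.4 and HTSeq 0.9.1 were used, with the builds GRCm38 and mm10. Which annotation was counted, on which strand and after which filters is not given in the sources used here. Summary lines of the counting tool were left out of library sizes; reads outside genes were between 5.66% and 32.0% of these and the gene counts together.

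The counts were tested with edgeR 4.0.16 in R 4.3.3 by the two-sided quasi-likelihood test, after TMM scaling and the filterByExpr filter (at least 10 counts, 15 in total). Genes with a p below 0.05, adjusted by Benjamini-Hochberg over every gene tested, count as called. The 20 day 5 libraries shared 1 fit, the 11 day 13 libraries had their own, and the difference between days used all 31. The standard error is the absolute log2 fold change divided by the square root of F. CPM values are scaled by TMM within a fit. There were 7 comparisons, and p-values from different comparisons were not adjusted together. The fits were tested on simulated data. DESeq2 1.42.0 and limma 3.58.1 (voom) were alternatives, with other scalings, filters, samples in the fit, single libraries left out, a replicate block and a marker covariate.

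Nothing in the labels says that libraries come from separate animals, so p-values measure the spread between these libraries, which may be technical in part. No pair of replicates agreed within sampling noise. Values by library are given for genes called against their own mock and, whatever their result, for Irf7, Isg15, Ifit1, Mx1, Rsad2, Oasl2 and Bst2. Of the pathway lists, genes called in a comparison with own mock or between the regimens are named. Values by library of Ifi44, Ifit3, Oasl1, Siglech and Spib, and single values of other members, were added after they were seen. The 35 members and the lists were chosen with earlier results of these data known. Of 211 list genes other than members, 209 were found, 11 of them by an older symbol. A gene of the list of receptors and kinases is not reported here. Gene positions are those of GENCODE M21 (GRCm38), and promoter sequences those of RefSeq (GRCm38.p6).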

Additional observations from a re-analysis of the deposited data

Results flagged for a closer look

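In 66 groups of 4 to 7 libraries, covering 10 genes and the mean over the 35, 3 values lay far from the rest of their group, where chance alone gives about 1 in 20. Irf7 had 452 CPM in 3x0Gy library 2, where the other 3 libraries had between 259.6 and 285 CPM. This is the library with few leukocyte check genes and many macrophage markers. Isg15 had 300.4 CPM in day 13 1x20Gy library 4, where the other 6 had between 434 and 511 CPM. Bst2 had 169 CPM in day 13 1x0Gy library 2, where the other 3 had between 159 and 160.0 CPM, so this gap is small in itself.

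Bst2 was also the gene of the set whose response to 1x20Gy differed between day 13 and day 5 by a test of the difference itself, at 1.40 on the log2 scale. Day and experiment cannot be told apart in this comparison.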

How the results depend on the processing

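No called gene of the 35 changed direction under any alternative run. For 3x4Gy against 3x0Gy, 3 genes were called, against 5 with DESeq2 or limma voom, 1 with only the groups compared and 0 with the marker covariate. For 1x20Gy at day 5, 2 were called, against 4 with upper quartile scaling or DESeq2, 5 with library size scaling or only the groups compared and 1 with the covariate. At day 13 none was called, against 11 with library size scaling and 1 each with upper quartile scaling, DESeq2, limma voom, no filter or the covariate. For 3x4Gy against 1x20Gy none was called, against 1 with library size scaling and 2 with DESeq2. The day difference had 1 call and 0 with limma voom. With library size scaling the median of all genes stood at -0.10, -0.11 and -0.23 in the comparisons with own mock, and the day 13 median of the 35 at -0.46, which is -0.23 relative to all genes. The 3x4Gy median became -0.02, or 0.09 relative to all genes, and also turned negative with the replicate block (-0.002) and the covariate (-0.08). With the covariate the median was -0.25 for 1x20Gy at day 5 and -0.0038 for the day difference. The cause of these changes was not tested.

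Leaving out each library in turn gave between 2 and 5 called genes for 3x4Gy, 1 and 3 for 1x20Gy at day 5, 0 and 3 at day 13 and 0 and 1 for the day difference, with 0 throughout for the other comparisons. All-gene calls were 1477 for 3x4Gy against 3x0Gy, against 702 with only the groups compared and 204 with the covariate. They were 1028 for 1x20Gy at day 5, against 137 with the covariate, and 891 at day 13, against 1533 with library size scaling and 384 with the covariate. For 3x4Gy against 1x20Gy they were 3, against 14 with DESeq2, 5 with no filter, 1 with only the groups compared and 0 with limma voom, a minimum count of 30 or the covariate. For the day difference they were 51, against 228 with DESeq2, 237 with only the groups compared, 85 with no filter, 18 with the covariate, 8 with the replicate block, 5 with upper quartile scaling and 3 with limma voom. The share of calls that were higher, 42.3%, 42.9% and 52.4% in the comparisons with own mock, was 28.8%, 29.8% and 42.9% with upper quartile scaling and 23.1%, 18.2% and 14.5% with library size scaling.

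With the replicate block, 5 genes were called for 1x20Gy at day 5 (Oas2, Bst2, Ifi44, Rtp4 and Xaf1) and 4 at day 13 (Stat2, Ifih1, Ifi203 and Ifi204). Deviations of same-numbered libraries correlated between -0.27 and 0.40 in the comparisons with own mock, below 0.1 for some pairs in each, so the numbers were not read as pairs.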
